A study of Mus musculus with 6 samples.

Results

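Cholesterol synthesis and its control by sterols were followed through 28 genes in the kidneys of diabetic mice. The genes were chosen by symbol from what their products do: sterol sensing in the endoplasmic reticulum, the enzyme steps from acetoacetyl-CoA to cholesterol, and the handling of finished sterol. All 28 symbols were found among the 55401 gene identifiers of the deposited tables, and all 28 passed the filter on low counts, which kept 17194 genes. Kidney RNA was sequenced in 3 WT/Sed and 3 Cdo1KKO/Sed libraries, each labelled as a biological replicate. Diabetes of type 1 had been induced with streptozotocin, a toxin of pancreatic beta cells, in the mice of both groups, so the controls were diabetic too. The study's stated interest is the part of Cdo1 in renal tubules, where this gene encodes cysteine dioxygenase, the enzyme that oxidises cysteine on the way to taurine. The labels give genotype as WT or KO and no other difference between the groups. They do not spell out Sed, and the sources used here do not give the driver of the knockout, the cells it reaches, age, sex or batch.

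Cells make cholesterol from acetyl-CoA. The mevalonate steps build the isoprene units, which are joined to farnesyl pyrophosphate and squalene, and squalene is closed to lanosterol and trimmed to cholesterol. When sterol in the endoplasmic reticulum is low, Scap carries the transcription factor precursor made by Srebf2 to the Golgi, where it is cut and released to the nucleus. It then switches on most genes of the pathway, while Insig1 and Insig2 hold Scap back when sterol is high. Excess sterol is read by the LXR receptors (Nr1h2, Nr1h3), which raise genes of sterol export and of receptor breakdown.

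The stretches of promoter below are those of 3 genes with higher and 3 with lower counts in Cdo1KKO/Sed kidneys whose calls held in every alternative analysis. They are shown because one transcription factor, the product of Srebf2, is known to act on all 6. Each line holds the 250 bases before the RefSeq start of the gene (GRCm38.p6), 5′ to 3′ on the gene's own strand. Capitals mark 3 motifs, searched on both strands: the sterol regulatory element TCACNCCAC, the CCAAT box (CCAAT, or ATTGG on the other strand), which binds the factor NF-Y, and the E-box CACGTG. The stretches lie at chr13:8885356-8885605 (plus strand) for Idi1, chr8:64733579-64733828 (minus) for Msmo1, chr5:28071162-28071411 (plus) for Insig1, chr13:119690101-119690350 (plus) for Hmgcs1, chr5:4104698-4104947 (minus) for Cyp51 and chrX:8193513-8193762 (minus) for Ebp.
Idi1: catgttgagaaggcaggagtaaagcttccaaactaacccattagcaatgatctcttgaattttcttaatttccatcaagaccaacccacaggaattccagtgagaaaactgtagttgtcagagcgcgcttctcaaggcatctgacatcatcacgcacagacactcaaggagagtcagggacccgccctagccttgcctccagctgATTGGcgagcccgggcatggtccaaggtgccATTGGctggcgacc
Msmo1: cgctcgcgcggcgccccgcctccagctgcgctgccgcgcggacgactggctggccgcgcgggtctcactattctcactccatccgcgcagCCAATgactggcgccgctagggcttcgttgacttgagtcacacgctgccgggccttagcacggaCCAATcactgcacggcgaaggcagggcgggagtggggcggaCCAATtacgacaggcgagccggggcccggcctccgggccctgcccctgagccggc
Insig1: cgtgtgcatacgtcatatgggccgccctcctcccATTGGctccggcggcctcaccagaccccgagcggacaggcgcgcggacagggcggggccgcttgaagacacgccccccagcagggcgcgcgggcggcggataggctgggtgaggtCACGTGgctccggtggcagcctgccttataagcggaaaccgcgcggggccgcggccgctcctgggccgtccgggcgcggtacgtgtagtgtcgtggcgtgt
Hmgcs1: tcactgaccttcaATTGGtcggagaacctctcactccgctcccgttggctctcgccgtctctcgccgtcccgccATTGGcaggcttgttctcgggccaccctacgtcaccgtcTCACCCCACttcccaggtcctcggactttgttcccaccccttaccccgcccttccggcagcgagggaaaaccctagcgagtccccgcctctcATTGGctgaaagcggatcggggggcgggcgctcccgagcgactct
Cyp51: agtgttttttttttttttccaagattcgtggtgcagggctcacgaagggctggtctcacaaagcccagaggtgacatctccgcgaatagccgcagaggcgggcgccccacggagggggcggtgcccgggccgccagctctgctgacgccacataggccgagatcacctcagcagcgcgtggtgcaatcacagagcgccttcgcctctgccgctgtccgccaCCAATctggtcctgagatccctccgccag
Ebp: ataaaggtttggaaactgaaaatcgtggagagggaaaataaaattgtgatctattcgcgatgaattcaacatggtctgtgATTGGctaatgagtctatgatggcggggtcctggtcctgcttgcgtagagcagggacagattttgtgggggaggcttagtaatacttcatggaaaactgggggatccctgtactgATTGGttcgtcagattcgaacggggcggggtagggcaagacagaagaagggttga

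Motif letters were counted in RefSeq windows of 250 bases before to 50 bases after each start, available for 24 of the 28 genes (31 windows, since 5 genes had more than 1). A gene was counted when any of its windows held the letters. The CCAAT letters stood in 20 of the 24 genes, or 83.3%, against 41.1% of all 27025 genes with a window. They were in 5 of 5 genes that rose, 6 of 9 that fell and 9 of 10 without a call, so both directions had them. The sterol regulatory element in this strict form was found in Hmgcs1 only, with its first base at -137 from the start (4.17%, against 1.44% of all genes). The E-box was found in 5 genes (20.8%, against 8.09%): Scap, Insig1, Hsd17b7, Sc5d and Dhcr7. A match describes letters in a window and does not show binding.

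The 6 libraries held 28145261 to 43872779 counts on genes. Levels are given as CPM, the counts per gene divided by library size, with library sizes scaled by the trimmed mean method (TMM), and folds as log2 of Cdo1KKO/Sed over WT/Sed ± standard error. A gene was said to have risen or fallen when its p, adjusted over all 17194 genes in edgeR's quasi-likelihood test, was under 0.05. Cdo1, the targeted gene, stood at 181, 191 and 180 CPM in WT/Sed 1 to 3 against 109, 118 and 103 CPM in Cdo1KKO/Sed 1 to 3. It fell by 0.74 ± 0.06 (edgeR adjusted p = 4.64e-06) to 59.8% of the control mean, and the groups did not overlap. The exact 2-sided permutation p of these CPM values was 0.1, the smallest that 3 against 3 can give. The first principal component held 76.1% of the variance and separated the genotypes, and the second, with 12.7%, set WT/Sed 2 and WT/Sed 3 apart (scores of -29.5 and 25.1, with the other 4 libraries between 0.24 and 1.93). Of the proximal tubule markers 12 of 12 fell (summed level 14805 to 15590 CPM in WT/Sed against 8448 to 9205 CPM in Cdo1KKO/Sed), while 8 of 10 macrophage markers rose and 1 fell (62.2 to 100 CPM, and 395 to 426 CPM). Most of the macrophage sum in the knockouts was Cd14, whose mean went from 3.83 to 281 CPM. Lyz2, the next largest of the risen macrophage markers, went from 10.7 to 35.2 CPM. Csf1r, the largest of these markers in the controls, fell from 46.3 to 36.6 CPM. The macrophage sum therefore mainly follows 1 gene. In bulk tissue, fewer cells of a type and less RNA per cell cannot be told apart. The median log2 fold of the 12 proximal tubule markers was -0.75, close to that of Cdo1. The part of these marker shifts in the fall of Cdo1 and in the results that follow was not tested.

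Of the 28 genes, 5 rose and 10 fell in Cdo1KKO/Sed kidneys, and 13 had no call. Those that rose were Srebf2, Insig1, Pmvk, Idi1 and Msmo1. The genes that fell were Scap, Insig2, Acat2, Hmgcs1, Cyp51, Tm7sf2, Nsdhl, Ebp, Nr1h3 and Stard4. The called share was 53.6%, beside 37.4% of all tested genes. In the 2 directions it was 17.9% risen, beside 18.9% of all genes, and 35.7% fallen, beside 18.5%. The values of the 2 groups did not overlap for 19 of the 28 genes (67.9%, beside 50.3% of all genes), namely the 15 called genes and Fdps, Fdft1, Sc5d and Dhcr7. The median fold was -0.098, beside 0.0078 over all genes, and no fold reached 1 in size, which 10.9% of all genes did.

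Where these counts stood depended on how the libraries were scaled. TMM factors ran from 0.94 to 0.95 in WT/Sed, and in Cdo1KKO/Sed from 1.05 to 1.07. With unscaled library sizes the median fold of all genes moved from 0.0078 to 0.18, and 76.6% of all calls were rises in place of 50.5%. On log2(TPM + 1) that median was 0.19 and the share of rises 84.5%. The cholesterol genes moved along with this shift: 7 rose and 4 fell with unscaled sizes, and 10 rose and 4 fell on log2(TPM + 1). Their median stayed below that of all genes in every setting tried, by 0.11 with TMM and with unscaled sizes and by 0.06 on log2(TPM + 1). The 4 rises of Insig1, Pmvk, Idi1 and Msmo1 and the 4 falls of Hmgcs1, Cyp51, Ebp and Nr1h3 were called in all 16 alternatives, leave-one-out included. The sizes moved with the scaling: on log2(TPM + 1) the folds were -0.42 for Hmgcs1, -0.23 for Cyp51, -0.27 for Ebp and -0.20 for Nr1h3, against -0.68, -0.49, -0.53 and -0.46 with TMM. Those of the risen genes were 0.56 for Insig1, 1.08 for Pmvk, 0.87 for Idi1 and 0.91 for Msmo1, against 0.32, 0.90, 0.66 and 0.71.

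**Figure D1:**
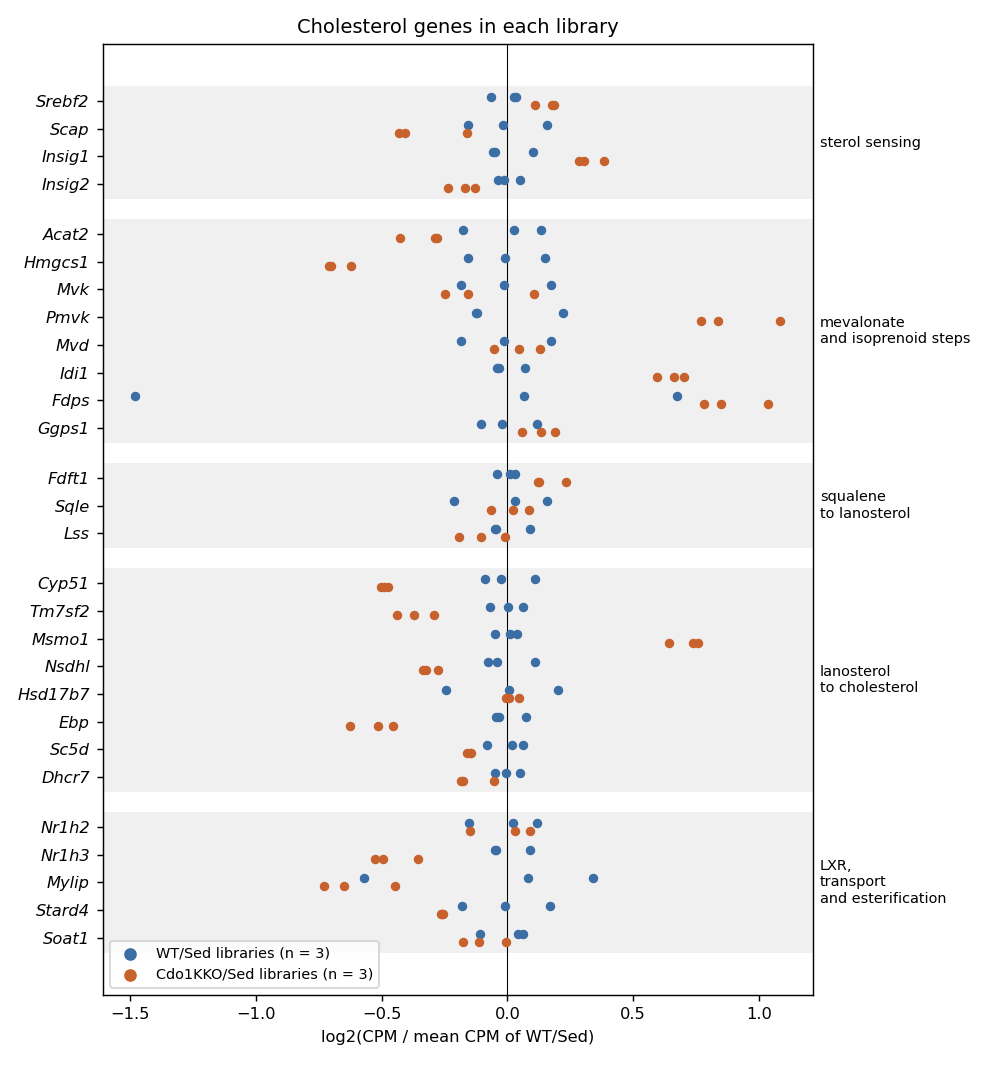
Level of each of the 28 genes in each library, as log2 of its CPM over the mean CPM of WT/Sed; blue points are the 3 WT/Sed libraries and orange points the 3 Cdo1KKO/Sed libraries, grouped by role. The orange points of Pmvk, Idi1 and Msmo1 lie far to the right and those of Hmgcs1, Cyp51, Ebp and Nr1h3 to the left, while Fdps and Mylip spread widely within WT/Sed.

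Among the 4 sensing genes, 2 rose and 2 fell, and within the Insig pair the directions were opposite under TMM. Insig1, the retention protein whose own gene is a known target of the Srebf2 product, read 32.1, 32.3 and 35.9 CPM in WT/Sed 1 to 3 against 40.7, 41.3 and 43.6 CPM in Cdo1KKO/Sed 1 to 3. Every knockout library was above every control, and the rise was 0.32 ± 0.07 (edgeR adjusted p = 0.00306). Insig2, which does the same work but is not driven by that factor in the same way, read 51.2, 48.3 and 49.0 CPM in WT/Sed against 45.2, 42.0 and 44.0 CPM in Cdo1KKO/Sed. It fell by 0.18 ± 0.06 with TMM (edgeR adjusted p = 0.0331), and its fold was 0.073 on log2(TPM + 1), 0.075 on log2(TPM + 0.1) and -0.0097 with unscaled sizes, none of them a call. The ratio of Insig1 to Insig2 counts, which needs no scaling between libraries, went from 0.627, 0.668 and 0.733 in WT/Sed to 0.899, 0.984 and 0.992 in Cdo1KKO/Sed. So Insig1 stood at 0.676 ± 0.053 of Insig2 in the controls and at 0.958 ± 0.051 in the knockouts (mean ± SD, n = 3), with no overlap.

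Srebf2 itself differed little. It read 55.1, 55.5 and 51.8 CPM in WT/Sed against 58.3, 61.5 and 61.2 CPM in Cdo1KKO/Sed, a rise of 0.16 ± 0.06 (edgeR adjusted p = 0.0457). The groups did not overlap, but this call was the closest to the threshold. Among the settings that ended it were DESeq2 (adjusted p = 0.0838), no filter on low counts (0.0653), and leaving out WT/Sed 1, WT/Sed 3 or any 1 of the Cdo1KKO/Sed libraries (edgeR adjusted p of 0.0735 to 0.158, folds of 0.12 to 0.18). Scap, the escort of the Srebf2 product, read 47.4, 53.5 and 43.1 CPM in WT/Sed against 35.5, 42.9 and 36.2 CPM in Cdo1KKO/Sed. It fell by 0.33 ± 0.09 (edgeR adjusted p = 0.0209), although Cdo1KKO/Sed 2 came within a fraction of 1 CPM of WT/Sed 3. That call was lost without WT/Sed 1 (adjusted p = 0.0642), Cdo1KKO/Sed 1 (0.0970) or Cdo1KKO/Sed 3 (0.0930) and with unscaled sizes, where edgeR gave a fold of -0.16. On log2(TPM + 1) and log2(TPM + 0.1) the Scap fold was -0.070 and -0.074 (limma adjusted p = 0.559 and 0.558). For Insig2 the call went without WT/Sed 1 (0.137), Cdo1KKO/Sed 1 (0.0627), Cdo1KKO/Sed 2 (0.127) or Cdo1KKO/Sed 3 (0.0819), and with no filter on low counts (0.0561), all edgeR adjusted p.

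The 8 genes of the mevalonate and isoprenoid steps did not move as a block: 2 rose, 2 fell and 4 had no call. Hmgcs1, the synthase that makes HMG-CoA, was the most abundant of all 28 genes and held 31.7% of their summed CPM in WT/Sed. Its level was 646, 721 and 583 CPM in WT/Sed against 400, 398 and 422 CPM in Cdo1KKO/Sed. All 3 knockout libraries lay well below the lowest control, at 62.6% of the control mean, and the fall was 0.68 on the log2 scale (SE 0.07, edgeR adjusted p = 3.45e-05). An antisense gene, Gm48342, overlaps Hmgcs1 and read about 1.08 and 0.51 CPM in the 2 groups. Downstream of it, Pmvk, the kinase that makes mevalonate pyrophosphate, had the largest fold of the 28 genes. Pmvk read 6.40, 6.41 and 8.12 CPM in WT/Sed against 11.9, 12.4 and 14.8 CPM in Cdo1KKO/Sed, a rise of 0.90 ± 0.13 (edgeR adjusted p = 3.21e-04). Idi1, the isomerase that balances the isoprene units, read 27.7, 29.7 and 27.5 CPM in WT/Sed against 42.8, 44.8 and 46.1 CPM in Cdo1KKO/Sed. Its groups were tight and far apart, and it rose by 0.66 ± 0.06 (edgeR adjusted p = 1.58e-05). The near-identical pseudogene Gm35570 read 1.23 CPM in WT/Sed against 0.64 CPM in Cdo1KKO/Sed, far below Idi1.

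Between Pmvk and Idi1, and beside them, stood enzymes without a call. Mvk, the kinase just before Pmvk, was at 5.67 ± 0.71 and 5.32 ± 0.70 CPM (mean ± SD, n = 3, WT/Sed first), a fold of -0.092 ± 0.15. Mvd, the decarboxylase just before Idi1, was at 38.2 ± 4.74 and 39.3 ± 2.48 CPM, a fold of 0.045 ± 0.09. Ggps1, which makes geranylgeranyl pyrophosphate for protein prenylation, was at 34.1 ± 2.66 and 37.2 ± 1.7 CPM, a fold of 0.13 ± 0.07. The call for Ggps1 appeared with unscaled sizes, on both TPM scales and without WT/Sed 3 (edgeR adjusted p = 0.0491, fold 0.18), and that for Mvd on both TPM scales. Fdps, the farnesyl pyrophosphate synthase, was listed at only 0.67, 0.15 and 0.44 CPM in WT/Sed against 0.86, 0.75 and 0.72 CPM in Cdo1KKO/Sed. The groups did not overlap, but its fold of 0.83 ± 0.46 was not a call (edgeR adjusted p = 0.18). The fold was 0.49 without WT/Sed 2 and 1.31 without WT/Sed 1, neither a call, and on log2(TPM + 1) a fold of 0.30 passed (limma adjusted p = 0.0431). Transcripts of 5 other gene models, 4 of them processed pseudogenes, match Fdps over 605 or more bases at 96.1% identity or above. The other model, Gm43738, is protein-coding and overlaps Fdps on the same strand. It matches 929 of 1382 bases of the Fdps transcript at 100% identity, so strand cannot separate reads from this stretch. Gm43738 held 4 counts in WT/Sed and 0 in Cdo1KKO/Sed. The sources used here do not say how reads shared by such models were counted.

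Acat2, the cytosolic thiolase of the first step, shares sequence with a neighbour. Its level was 135, 117 and 145 CPM in WT/Sed against 108, 109 and 98.5 CPM in Cdo1KKO/Sed, and it fell by 0.33 ± 0.08 (edgeR adjusted p = 0.00675) with no overlap. Acat3, a mouse gene whose transcript is 97.7% identical to that of Acat2 over 1477 of 2250 bases, read 16.9, 16.2 and 18 CPM in WT/Sed against 47.6, 43.1 and 46.5 CPM in Cdo1KKO/Sed. It rose by 1.42 ± 0.07 (edgeR adjusted p = 1.21e-07), so the share of the pair's counts assigned to Acat3 grew. Summed, the 2 genes were at 149 ± 15.2 CPM in WT/Sed, against 151 ± 5.54 CPM in Cdo1KKO/Sed (mean ± SD, n = 3), a fold of 0.015 ± 0.072 (edgeR adjusted p = 0.894). The sum was added after the values were seen. The sources used here do not say how reads shared by Acat2 and Acat3 were counted, and the part of this in their folds was not tested. Another 445 bases of the Acat2 transcript match Tcp1, a chaperonin gene, at 98.7% identity, and Tcp1 read 156.0 and 186 CPM in the 2 groups. The fall of Acat2 alone was also no call with unscaled sizes (fold -0.16) or on the TPM scales (-0.072 and -0.073).

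**Figure D2:**
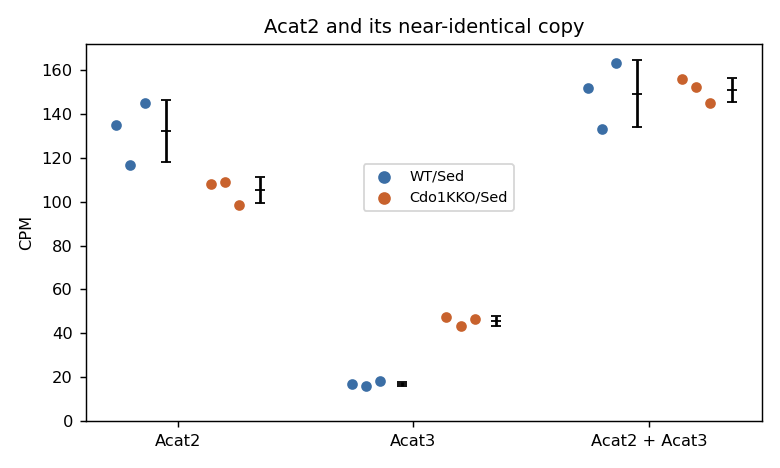
CPM of Acat2, of its near-identical copy Acat3 and of both summed in each library (points; black marks are mean ± SD, n = 3; blue, WT/Sed; orange, Cdo1KKO/Sed). Acat2 is lower and Acat3 higher in Cdo1KKO/Sed, and the sums of the 2 groups, 149 and 151 CPM on average, overlap.

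None of the 3 genes that carry farnesyl pyrophosphate to lanosterol was called. Sqle, the squalene epoxidase and an oxygen-using control point of the pathway, read 75.1, 63.5 and 82.0 CPM in WT/Sed against 70.2, 78.1 and 74.6 CPM in Cdo1KKO/Sed, a fold of 0.014 ± 0.087 with groups that overlapped. Lss, the cyclase that closes lanosterol, was at 21.4 ± 1.22 and 20.0 ± 1.27 CPM, a fold of -0.097 ± 0.081. Fdft1, the squalene synthase, read 27.9, 28.9 and 29.3 CPM in WT/Sed against 33.7, 31.2 and 31.3 CPM in Cdo1KKO/Sed. The groups did not overlap, yet the fold of 0.16 ± 0.06 missed the threshold (edgeR adjusted p = 0.0761) and passed it with unscaled sizes and on both TPM scales. The Fdft1 gene overlaps Ctsb, the cathepsin B gene, on the opposite strand, 774 bases of its transcript lie in both, and Ctsb was at 650 and 748 CPM, so reads from this stretch cannot be told apart without strand. In all, 14 of the 28 genes overlap another annotated gene, among them Cyp51 with Akap9, Tm7sf2 with Vps51 and Ggps1 with Arid4b.

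Of the 8 genes from lanosterol to cholesterol, 4 fell, 1 rose and 3 had no call. Cyp51, the demethylase that starts on lanosterol, read 280, 268 and 307 CPM in WT/Sed against 202, 203 and 205 CPM in Cdo1KKO/Sed. The knockout libraries lay within a few CPM of each other and well below the lowest control, and the fall was 0.49 on the log2 scale (SE 0.06, edgeR adjusted p = 6.38e-05). Msmo1, the methyl sterol oxidase that acts further down, went the other way. It read 33.3, 34.0 and 32.0 CPM in WT/Sed against 51.6, 55.2 and 56.0 CPM in Cdo1KKO/Sed, a rise of 0.71 ± 0.06 (edgeR adjusted p = 5.77e-06). Nsdhl, which works with Msmo1 to remove the methyl groups, read 64.7, 71.7 and 63.1 CPM in WT/Sed against 54.9, 53.1 and 52.7 CPM in Cdo1KKO/Sed, and fell by 0.31 ± 0.06 (edgeR adjusted p = 0.00224). Ebp, the isomerase that shifts the ring double bond, read 72.0, 77.4 and 71.3 CPM in WT/Sed against 53.7, 51.6 and 47.7 CPM in Cdo1KKO/Sed. It fell by 0.53 ± 0.06 (edgeR adjusted p = 6.30e-05), with wide space between the groups. Tm7sf2, a sterol reductase after Cyp51, was scarce at 9.07, 9.45 and 8.64 CPM in WT/Sed against 6.68, 7.39 and 6.998 CPM in Cdo1KKO/Sed, and fell by 0.36 ± 0.11 (edgeR adjusted p = 0.0239).

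The falls of Nsdhl and Tm7sf2 depended on scaling. With unscaled sizes the folds were -0.14 for Nsdhl and -0.20 for Tm7sf2, and on log2(TPM + 1) they were -0.056 and -0.093, with no call. The call for Tm7sf2 also went without WT/Sed 1 (edgeR adjusted p = 0.0758), Cdo1KKO/Sed 1 (0.0932) or Cdo1KKO/Sed 3 (0.0726). Sc5d, the desaturase near the end of the pathway, read 63.2, 58.9 and 65.1 CPM in WT/Sed against 56.2, 56.4 and 55.8 CPM in Cdo1KKO/Sed. Its groups did not overlap, and its fold of -0.15 ± 0.06 lay just outside the threshold (edgeR adjusted p = 0.0516). It lay inside with RLE factors (0.0454), upper-quartile factors (0.0425) and without WT/Sed 2 (0.00945, fold -0.19). Its sign turned with unscaled sizes (fold 0.015) and on the TPM scales (0.098 and 0.10), with no call. Dhcr7, the reductase of the last step, was at 17.4 ± 0.59 and 15.8 ± 0.83 CPM, a fold of -0.14 ± 0.08 with no overlap and no call. Hsd17b7, the ketoreductase that partners Nsdhl, was at 28.4 ± 4.32 and 28.7 ± 0.55 CPM, a fold of 0.012 ± 0.098.

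**Figure D3:**
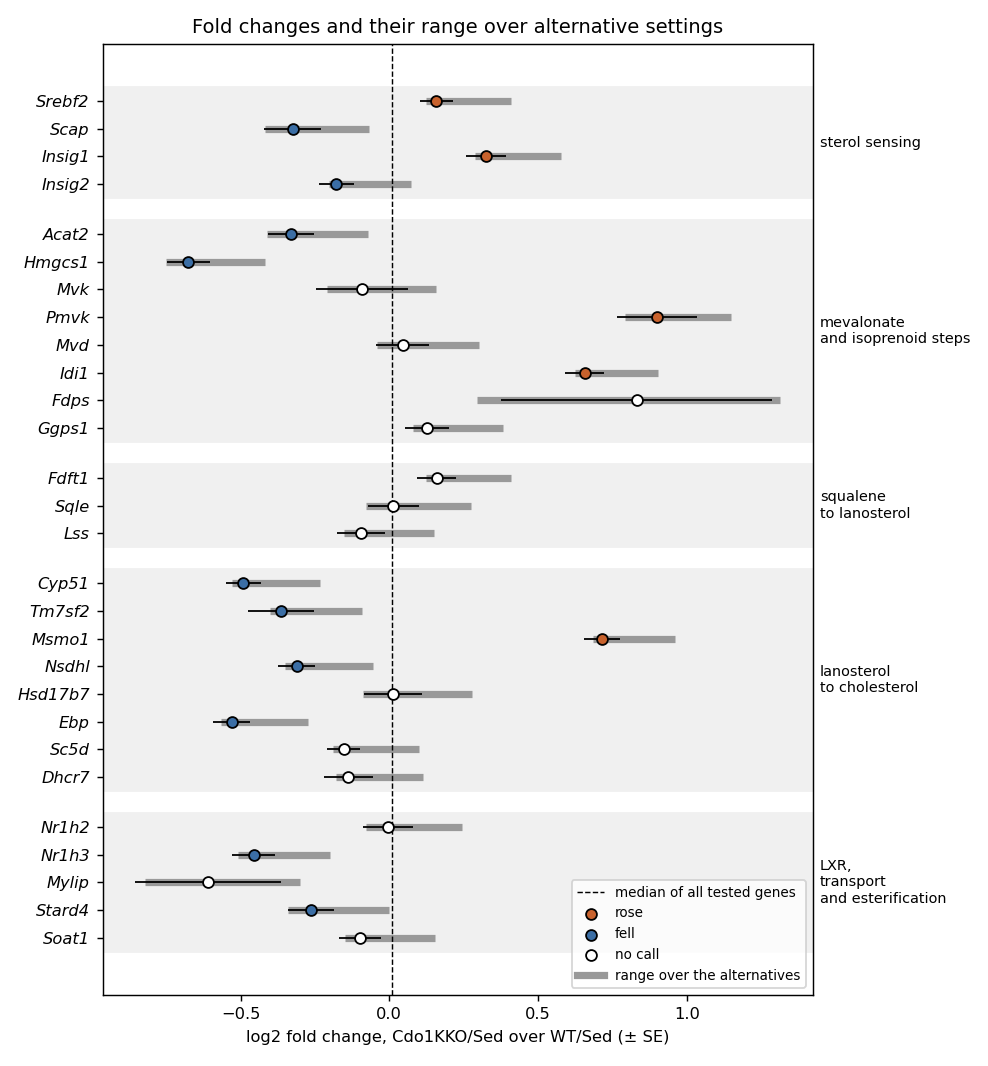
Log2 fold of Cdo1KKO/Sed over WT/Sed for each gene with TMM (circle; line, ± SE; orange, rose; blue, fell; white, no call), the range over the 16 alternative analyses (grey bar) and the median of all tested genes with TMM (dashed line, 0.0078). The bars of Insig1, Pmvk, Idi1 and Msmo1 stay right of 0 and those of Hmgcs1, Cyp51, Ebp and Nr1h3 left of it, while that of Insig2 crosses 0.

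Ratios between genes within a library do not depend on the scaling between libraries. Not all the pairs are of adjacent steps. The pairs were chosen after the values were seen, so they describe these libraries and carry no test. Msmo1 stood at 0.119, 0.127 and 0.104 of Cyp51 counts in WT/Sed against 0.256, 0.272 and 0.273 in Cdo1KKO/Sed, or 0.117 ± 0.011 and 0.267 ± 0.009 (mean ± SD, n = 3), 2.29 times as high. Idi1 stood at 0.0437 ± 0.0031 of Hmgcs1 counts in WT/Sed against 0.109 ± 0.0028 in Cdo1KKO/Sed, 2.50 times as high. Pmvk over Mvk went from 1.24 ± 0.23 to 2.45 ± 0.03, and Nsdhl over Msmo1 from 2.01 ± 0.09 to 0.989 ± 0.065. Of the 10 ratios computed, the groups overlapped only for Hmgcs1 over Acat2 (4.99 ± 1.09 and 3.88 ± 0.36).

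**Figure D4:**
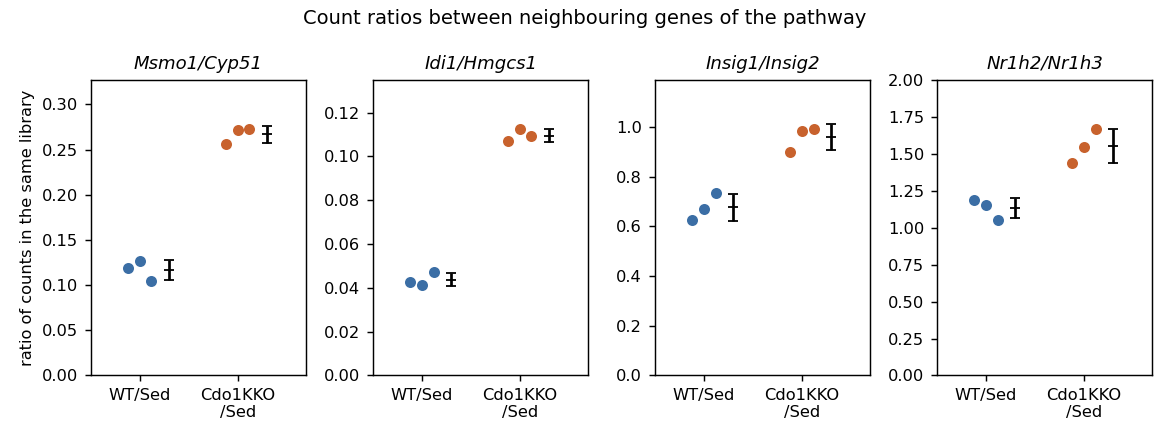
Ratio of the counts of 2 genes in the same library for 4 pairs (points, libraries; black marks, mean ± SD, n = 3; blue, WT/Sed; orange, Cdo1KKO/Sed; each axis starts at 0). All 4 ratios are higher in every Cdo1KKO/Sed library than in any WT/Sed library, and the mean of Msmo1 over Cyp51 goes from 0.117 to 0.267.

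Among the 5 genes of sterol reading, movement and storage, 2 fell and none rose. Nr1h3, which encodes LXR alpha, read 38.8, 42.5 and 38.7 CPM in WT/Sed against 28.4, 31.2 and 27.7 CPM in Cdo1KKO/Sed, and fell by 0.46 ± 0.07 (edgeR adjusted p = 4.74e-04) with no overlap. Nr1h2, which encodes the widely expressed LXR beta, read 46.1, 49.2 and 40.8 CPM in WT/Sed against 40.9, 48.3 and 46.3 CPM in Cdo1KKO/Sed. These groups overlapped, with 45.4 ± 4.25 and 45.2 ± 3.81 CPM (mean ± SD, n = 3) and an edgeR adjusted p of 0.979, though on log2(TPM + 1) Nr1h2 had a fold of 0.24 that passed (limma adjusted p = 0.0417). The ratio of Nr1h2 to Nr1h3 counts was 1.13 ± 0.07 in WT/Sed against 1.55 ± 0.11 in Cdo1KKO/Sed, without overlap. Stard4, a carrier of cholesterol between membranes, read 87.6, 77.8 and 99.0 CPM in WT/Sed against 73.5, 73.7 and 73.4 CPM in Cdo1KKO/Sed. It fell by 0.26 ± 0.08 (edgeR adjusted p = 0.0206), and its SD was 10.6 CPM among the controls against 0.173 CPM among the knockouts. Its call went with unscaled sizes (fold -0.094), on both TPM scales, and without WT/Sed 1 (edgeR adjusted p = 0.0644), Cdo1KKO/Sed 1 (0.0774), Cdo1KKO/Sed 2 (0.0703) or Cdo1KKO/Sed 3 (0.0697). Mylip, an LXR target that marks lipoprotein receptors for breakdown, read 61.0, 38.8 and 73.0 CPM in WT/Sed against 36.7, 42.3 and 34.8 CPM in Cdo1KKO/Sed. WT/Sed 2 lay among the knockouts, and the fold of -0.61 ± 0.25 was no call (edgeR adjusted p = 0.117), but without WT/Sed 2 it was -0.82 ± 0.09 (adjusted p = 5.65e-06). On the TPM scales the Mylip fold was -0.30 and -0.31, with no call. Soat1, which esterifies cholesterol for storage, was at 40.4 ± 2.56 and 37.8 ± 2.26 CPM, a fold of -0.099 ± 0.071 with no call.

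WT/Sed 2 was also the control library with the highest Hmgcs1, Mvd and Nsdhl and the lowest Sqle, Hsd17b7, Cyp51 and Stard4. Summed endothelial markers in the WT/Sed libraries ranged from 62.4 to 231 CPM, a range that takes in the 214 to 227 CPM of Cdo1KKO/Sed, and none of these 7 markers was called. The standard deviation was larger in WT/Sed than in Cdo1KKO/Sed for 21 of the 28 genes. Their median coefficient of variation was 6.95% in WT/Sed against 5.18% in Cdo1KKO/Sed, beside 10.96% and 6.89% over all tested genes. In no library did the 28 genes shift together: between 11 and 14 of them lay above their group's mean in each.

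Between genes, levels were compared per transcript length in the deposited TPM, which divides the counts by gene length and sums to the same total in every library. Hmgcs1 led at 321 ± 29.9 TPM in WT/Sed against 240 ± 10.1 TPM in Cdo1KKO/Sed, followed by Cyp51 (147 ± 12.2 and 125 ± 2.11), Acat2 (118 ± 14.3 and 112 ± 5.53) and Ebp (72.3 ± 2.41 and 59.7 ± 3.50; means ± SD, n = 3). In rank order by TPM the first 4 genes were the same in both groups. The intervals of mean ± SD of these 4 neighbours did not overlap in either group. At the foot of the order were Fdps (0.227 ± 0.141 and 0.5 ± 0.048 TPM), Lss (4.51 ± 0.20 and 5.02 ± 0.37 TPM), Tm7sf2 (4.67 ± 0.15 and 4.31 ± 0.18 TPM) and Mvk (4.81 ± 0.63 and 5.38 ± 0.74 TPM), of which the last 3 overlapped in WT/Sed. Insig1 moved from rank 14 to 7, Idi1 from 15 to 11 and Msmo1 from 21 to 16, and Nr1h3 went from 8 to 14. Middle ranks lay close together. In Cdo1KKO/Sed, ranks 7 to 10 were Insig1 (36.6 ± 1.60 TPM), Nr1h2 (36.4 ± 2.81), Sqle (36.2 ± 1.60) and Stard4 (35.6 ± 0.36), with overlapping intervals. In WT/Sed, Nr1h3 (36.1 ± 1.55 TPM) and Stard4 (35.9 ± 4.78) overlapped too. The summed CPM of the 28 genes in Cdo1KKO/Sed was 80.7% of that in WT/Sed, and 95.6% without Hmgcs1, Cyp51 and Acat2. Their summed TPM ran from 1154 to 1177 in the controls and from 1118 to 1130 in the knockouts, or 96.5% of the control mean.

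**Figure D5:**
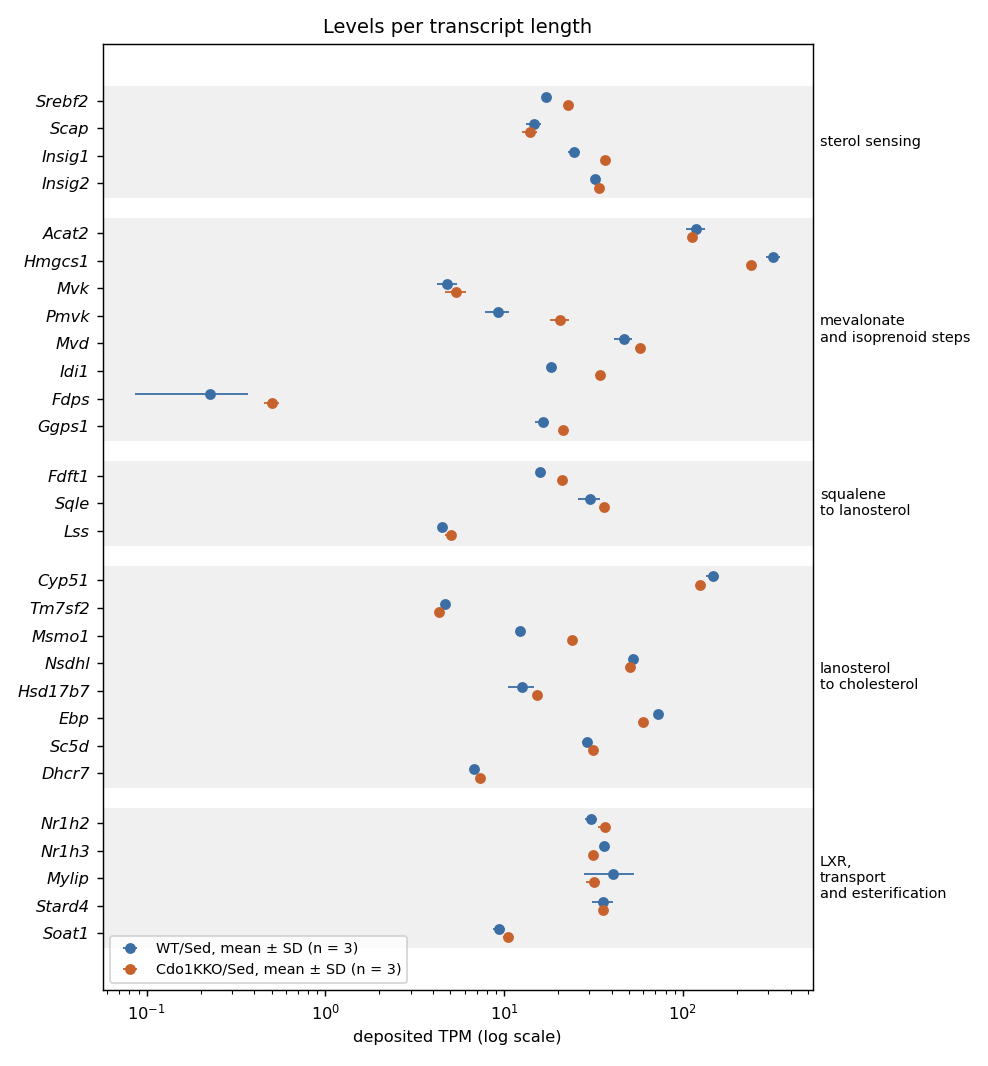
Deposited TPM of each gene (log axis; points, mean; lines, SD, n = 3; blue, WT/Sed; orange, Cdo1KKO/Sed), grouped by role. Hmgcs1, Cyp51, Acat2 and Ebp are the most abundant in both groups, and Fdps, at 0.227 and 0.5 TPM, is the least.

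Genes around the pathway were taken from 6 lists chosen by function, 66 genes of which 63 were tested. In these lists 11 genes rose and 20 fell, with a median fold of -0.074. These were 17.5% and 31.7% of the tested genes, beside 18.9% and 18.5% of all genes. The balance turned with the scaling: 22 rose and 8 fell with unscaled sizes, and 31 rose and 6 fell on log2(TPM + 1). Of 13 genes of SREBP processing and sterol-regulated protein breakdown, 2 rose and 5 fell. Srebf1, which encodes the sister factor that favours fatty acid genes, rose by 0.49 ± 0.08 from 14.7 ± 0.94 to 20.6 ± 0.97 CPM (mean ± SD, n = 3; edgeR adjusted p = 8.84e-04), and Ube2g2, a ubiquitin-conjugating enzyme, rose by 0.37 ± 0.08. Erlin1 and Aup1, partners of the breakdown machinery in the endoplasmic reticulum, fell by 0.27 and 0.31 on the log2 scale with TMM, and were not called with unscaled sizes (-0.096 and -0.14) or on log2(TPM + 1) (-0.012 and -0.055). Of 11 other genes of synthesis and uptake, 2 rose and 3 fell. Acat1, the mitochondrial thiolase, fell by 0.43 on the log2 scale from 878 to 653 CPM, Scarb1, a receptor for high-density lipoprotein, rose by 0.52 from 6.40 to 9.19 CPM, and Pgrmc1, a haem-binding partner of Cyp51, fell by 0.16 with TMM. The Pgrmc1 fold was 0.011 with unscaled sizes and 0.095 on log2(TPM + 1), and its call was also lost without WT/Sed 1 or any 1 of the Cdo1KKO/Sed libraries (edgeR adjusted p of 0.0706 to 0.0919).

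In the list of efflux genes and LXR targets, which also holds the nuclear receptor Nr1h4, 1 of 7 tested genes rose and 1 fell. Of all genes, 18.9% rose and 18.5% fell. Pltp, a phospholipid transfer protein, rose by 1.24 ± 0.33 (edgeR adjusted p = 0.0133), from 1.35 ± 0.73 to 3.11 ± 0.53 CPM, a call lost without WT/Sed 1 (0.0731) or Cdo1KKO/Sed 1 (0.0672), and Nr1h4, the bile acid receptor FXR, fell by 0.74 on the log2 scale from 236 to 142 CPM. The folds of Apoe and Lpcat3, known LXR targets, were -0.14 ± 0.05 and -0.12 ± 0.07, with no call. Of 13 genes of lysosomal and intracellular transport, 3 rose and 4 fell. Gramd1b, which moves cholesterol from the plasma membrane to the endoplasmic reticulum, had the largest fall of these lists' named genes, 1.44 on the log2 scale, from 400.4 ± 52.6 to 147 ± 7.01 CPM (edgeR adjusted p = 1.90e-06). Lipa, the lysosomal acid lipase, and Osbpl8 fell by 0.44 and 0.29 on the log2 scale, and Osbp, a sterol exchanger at the Golgi, rose by 0.34. On log2(TPM + 1) the folds of Lipa and Osbpl8 were -0.19 and -0.036, with no call, and Osbpl8 had none with unscaled sizes either (-0.12).

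Among the enzymes of oxysterols and bile acids, 3 of 6 fell and 1 rose. Cyp27a1, the mitochondrial sterol hydroxylase, fell by 1.06 on the log2 scale from 58.4 ± 1.44 to 28.0 ± 0.42 CPM (edgeR adjusted p = 1.87e-07). Cyp7b1 fell by 0.68 and Akr1d1 fell by 0.54 on the log2 scale. Cyp7b1 was not called without Cdo1KKO/Sed 2 (edgeR adjusted p = 0.0541), with no filter (0.0772) or on log2(TPM + 1) (fold -0.40). Ch25h, which makes 25-hydroxycholesterol, rose by 2.12 ± 0.43 but from 0.216 ± 0.010 to only 0.948 ± 0.320 CPM (edgeR adjusted p = 0.00267). Of 13 genes that use isoprenoids, 2 rose and 4 fell. Nus1 and Dhdds, the subunits of the enzyme for dolichol, fell by 0.51 and 0.23, Pdss2, of coenzyme Q synthesis, fell by 0.36, and Rce1, a protease for prenylated proteins, rose by 0.36 (log2 scale, TMM). Dhdds and Pdss2 were not called with unscaled sizes (-0.066 and -0.20) or on log2(TPM + 1) (0.019 and -0.095), and Dhdds thus changed sign. Without 1 library, calls were lost for Dhdds (WT/Sed 1, edgeR adjusted p = 0.0526; Cdo1KKO/Sed 3, 0.0543), Pdss2 (Cdo1KKO/Sed 3, 0.0586) and Rce1 (Cdo1KKO/Sed 2, 0.0544).

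Tissues that could bring in sterol genes of their own were read beside these results. Markers of the adrenal cortex, a tissue rich in cholesterol genes, were at or near the floor: Cyp11a1, Cyp11b2 and Nr5a1 were at 0 in all 6 libraries, and the summed level of the 8 markers was 4.68 to 6.67 CPM in WT/Sed against 5.82 to 6.16 CPM in Cdo1KKO/Sed, with no call. Thick ascending limb markers rose for 5 of 6 and fell for 1 (3139 to 4008 CPM, and 5262 to 5467 CPM), and those of the distal tubule and collecting duct rose for 3 of 9 and fell for 2 (1744 to 2023 CPM, and 2226 to 2259 CPM). Of the latter, mean Slc12a3 rose from 1002 to 1365 CPM, Calb1 from 288 to 511 CPM and Slc4a1 from 18.5 to 36.6 CPM. Mean Aqp2 fell from 293 to 107 CPM and Aqp3 from 112 to 52.9 CPM. Neutrophil markers rose for 5 of 6 tested (1.65 to 3.13 CPM, and 14.7 to 18.1 CPM), and those of T and B lymphocytes for 2 of 6 (1.17 to 3.22 CPM, and 3.55 to 4.12 CPM). Of 7 hepatocyte markers, several of which the kidney also makes, 6 were tested, 3 fell and 3 had no call (2329 to 2527 CPM, and 1295 to 1516 CPM). Most of this sum was Cyp2e1, whose mean fell from 2222 to 1300 CPM, while Alb, at 6.87 and 6.03 CPM, had no call. Of 6 adipocyte markers, 2 were tested and 1 rose, with Lep at 0 in all libraries (12.1 to 61.9 CPM, and 36.9 to 43.8 CPM). Most of that sum was Fabp4, which had no call (means of 36.1 and 36.9 CPM), and the marker that rose was Cidec (0.332 to 3.13 CPM). The part of these shifts in the levels of the cholesterol genes was not tested.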

How the data were processed

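Poly(A) RNA of 6 kidneys was sequenced, 3 per group; groups come from the sample titles. The authors deposited counts per gene and TPM per gene. Per the submitters' processing notes, fastp 0.23.4 was run and the builds are GRCm38 and mm10; the aligner, the counter and the strand setting were not given in the sources used here. Deposited counts were tested with edgeR 4.0.16 (R 4.3.3): filterByExpr, TMM, and the robust quasi-likelihood F test on genotype without covariates, p adjusted over 17194 genes by Benjamini and Hochberg, threshold 0.05. The standard error was computed from the fold and its F value. TPM was tested as log2(TPM + 1) and log2(TPM + 0.1) with limma 3.58.1, where folds of low genes are understated. Other alternatives used DESeq2 1.42.0, limma-voom, other scalings and filters, a block, and leaving out each library. Gene positions and transcripts came from GENCODE M21 (GRCm38, 55141 of 55401 identifiers), near copies from blastn 2.17.0 (at least 95% identity over 300 bases), and promoters from RefSeq (GRCm38.p6).

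All 28 genes are named; called genes are given in every library. Of each related list, up to 4 genes with the smallest p are named, and 1 gene that this rule selects is not reported here. The genes and lists were chosen with earlier results of these data known. No 2 libraries agreed within sampling noise (chi-square per degree of freedom of 3.37 or more between any pair). No molecular identifiers are recorded, so the counts need not be independent molecules.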

Additional observations from a re-analysis of the deposited data

How the results depend on the processing

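RLE and upper-quartile factors, DESeq2, limma-voom, both other filters and the replicate block kept the counts of calls within 1.5 times the reported ones, among the 28 genes and the related genes. With unscaled library sizes 4 of the 28 genes fell, 22 related genes rose and 8 fell, and the median fold of the 28 was 0.071. On log2(TPM + 1) 10 of the 28 rose and 4 fell, 31 related genes rose and 6 fell, and the median was 0.13; on log2(TPM + 0.1) the values were 9 and 4, 30 and 6, and 0.15. These settings move the median of all genes to 0.18, 0.19 and 0.25. Sign changes that involved a call were those of Insig2 (0.073 and 0.075 on the TPM scales), Nr1h2 (0.24 and 0.25) and, summed with Acat3, Acat2 (0.015). In all, 10 of the 28 folds changed sign in at least 1 of the 16 alternatives, 9 of them uncalled with TMM. Mvk, Lss, Sc5d, Dhcr7, Soat1 and Nr1h2 did so with unscaled sizes and on the TPM scales. Sqle, Hsd17b7 and Mvd did so when 1 library was left out, as did Mvk without WT/Sed 1. The sign of Nr1h2 also changed with limma-voom, the filter of 1 CPM, and without WT/Sed 1, WT/Sed 2 or Cdo1KKO/Sed 1. Leaving out 1 library in turn gave 6 to 12 of the 28 genes fallen (6 without WT/Sed 1, Cdo1KKO/Sed 1 or Cdo1KKO/Sed 3), 7 to 13 related genes risen (7 without Cdo1KKO/Sed 1), 11 to 25 fallen (11 without Cdo1KKO/Sed 3, 13 without WT/Sed 1) and a median of -0.14 to -0.074; these fits have fewer samples. With the replicate block 4 of the 28 genes rose and 10 fell, the call for Srebf2 being lost. Same-numbered libraries did not deviate together (correlations of -0.017, 0.022 and 0.021), so these values show no pairing by number. The labels do not say whether the numbers pair the samples. Other causes were not tested. Fdps had the fewest counts of the 28 genes, 48 in WT/Sed and 91 in Cdo1KKO/Sed, where 3 counts equal 0.0654 to 0.112 CPM. How far its level reflects depth or the counting of reads shared with its near copies was not tested.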
